A study of Homo sapiens with 6 samples.

Results

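The 10 genes described here write, keep and remove the methyl group on cytosine in human DNA. They were taken by name: DNMT1, DNMT3A, DNMT3B, UHRF1, UHRF2, HELLS, TET1, TET2, TET3 and TDG. All 10 of 10 were found among the 62348 identifiers of the gene count files and all 10 passed the filter on low counts. Their RNA was read in HEK-293T, an established line from human embryonic kidney that makes SV40 large T antigen. The 3 libraries labelled C17orf80 knockout came from cells edited with CRISPR/Cas9, and the 3 wild-type (WT) libraries came from cells given a guide without a target. C17orf80, now called MTNAP1, encodes a protein of the mitochondrial nucleoid, and the series title asks about mitochondrial DNA transcription. Both groups were grown in the same serum-containing medium, and the knockout line was monoclonal after puromycin selection, per the labels. The sources used here do not give how many clones or cultures stand behind a group. A p-value here thus measures no more than the spread of these libraries, which may be technical, and guide effects and clone differences cannot be told apart.

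DNA methylation in mammals sits mostly on cytosines that are followed by guanine, written CG. DNMT3A and DNMT3B place it on unmethylated DNA, and DNMT1 copies it to the new strand after replication, guided by UHRF1, which binds hemimethylated sites, and helped by the chromatin remodeller HELLS. The TET dioxygenases oxidise methylcytosine, and the glycosylase TDG cuts out the oxidised bases so that base excision repair can restore cytosine. Many promoters are rich in CG and unmethylated when active, and methylation of such promoters accompanies stable silencing, as on the inactive X chromosome, at imprinted genes and at germline genes.

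The promoters of a writer and an eraser are shown because CG is the substrate of these enzymes and both promoters are rich in it. Each sequence is the 250 bases before the first start listed by RefSeq (build GRCh38.p14), 5′ to 3′ on the gene's strand, with every CG in capitals. CG reads the same on both strands, so 1 search covers both. DNMT1 is at chr19:10194954-10195203 on the minus strand and holds 21 CG. TET3 is at chr2:73984660-73984909 on the plus strand and holds 37 CG. That start lies 1279 bases inside the TET3 gene span.
DNMT1: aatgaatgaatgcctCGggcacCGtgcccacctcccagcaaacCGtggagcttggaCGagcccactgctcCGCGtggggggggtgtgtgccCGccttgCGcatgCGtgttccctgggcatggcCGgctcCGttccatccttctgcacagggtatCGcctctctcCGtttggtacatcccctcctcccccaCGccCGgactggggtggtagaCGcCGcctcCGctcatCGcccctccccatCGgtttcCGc
TET3: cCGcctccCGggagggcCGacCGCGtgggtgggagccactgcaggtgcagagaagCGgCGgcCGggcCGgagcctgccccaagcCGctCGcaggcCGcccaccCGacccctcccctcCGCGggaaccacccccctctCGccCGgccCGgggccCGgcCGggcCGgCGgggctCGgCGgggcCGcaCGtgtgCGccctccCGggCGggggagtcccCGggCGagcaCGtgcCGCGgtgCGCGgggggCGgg

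Gene counts summed to between 15942017 and 16122771 in the libraries labelled knockout and to between 14982340 and 16278091 in WT. C17orf80 (ENSG00000141219) had 763, 699 and 698 counts in the libraries labelled knockout, against 397, 451 and 476 in WT. Its log2 fold change was 0.78 ± 0.17 (SE), with an edgeR adjusted p of 0.0232 that became 0.0549 without replicate 3 labelled knockout and 0.0999 to 0.127 without 1 of the WT libraries. The transcript was thus higher and not lost, so the group is called by its label. Replicate 1 labelled knockout stood apart. Its Pearson's r with the other libraries of its group, across genes on log2 CPM, was 0.932 and 0.945, whereas those libraries correlated at 0.987. Mitochondrial genes held 11.9% of its counts, against 4.53% and 5.00% in replicates 2 and 3 labelled knockout and 4.65% to 4.71% in WT. Each result on the 10 genes is given with and without it. Of 14 markers of HEK-293 identity, 12 were tested, with 3 higher and 2 lower, beside 8.64% and 6.5% of all tested genes. INA, a neuronal filament gene, averaged 27.5 ± 5.60 CPM in the libraries labelled knockout and had 0 counts in WT. It passed the filter through the libraries where it is high. Levels of the 19 markers of other cell types summed to 29.4 to 45.2 CPM in the libraries labelled knockout and 54.4 to 61.6 CPM in WT. Of these, 6 were at 0 in every library, and COL1A1, a collagen gene, was the 1 called, at -0.82 ± 0.20 on the log2 scale (edgeR adjusted p = 0.0350).

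Levels below are CPM, that is counts divided by the TMM-scaled library size, comparable between libraries. They depend on transcript length, so they are not compared between genes. Fold changes are labelled knockout over WT, from edgeR's quasi-likelihood test over 17452 genes with n = 3 libraries per group. A gene was called at a Benjamini-Hochberg adjusted p under 0.05. Of the 10 genes, 1 was called higher (TET3) and 0 were called lower, where 8.64% of all tested genes were called higher and 6.5% lower (15.1% in all). Before adjustment, at an edgeR p under 0.05, 2 were higher (TET2 and TET3) and 1 was lower (DNMT3B). The share of all genes past that unadjusted threshold was not counted, and it cannot lie below the 15.1% called after adjustment. DESeq2 called TET2 and TET3 higher and DNMT3B lower, where it called 13.4% of genes higher and 10.7% lower (24.1% in all). With no filter on low counts edgeR called TET1, TET2 and TET3, where it called 9.61% of genes. The median log2 fold change of the 10 genes was 0.12, against 0.0055 over all tested genes, and 7 of the 10 were above 0. Without replicate 1 labelled knockout their median was -0.0087, and 5 of the 10 were above 0. With all libraries none reached a 2-fold change in either direction. With a library labelled knockout left out, TET1 reached a log2 fold change of 1.22 without replicate 2 and 1.18 without replicate 3, and TET2 1.12 and 1.13, none of them called. In 4 genes every library labelled knockout lay above every WT library (UHRF2, TET1, TET2 and TET3), and in 1 gene, DNMT3B, every one lay below. Among all tested genes 23.5% lay wholly above and 24.1% wholly below. In bulk RNA, fewer cells that use a gene and less of its RNA per cell cannot be told apart.

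**Figure D1:**
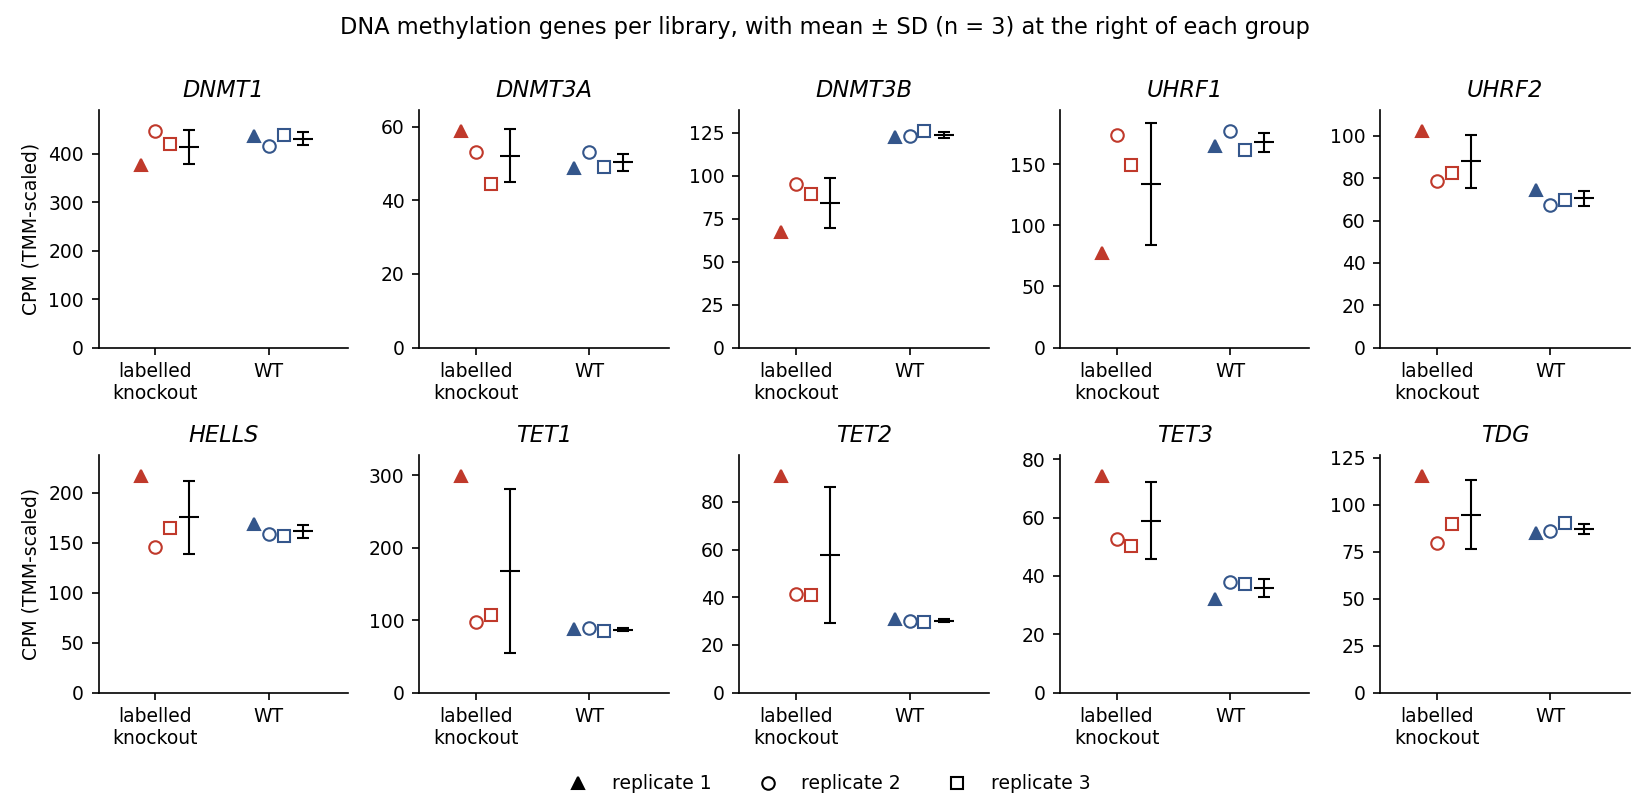
Level of each of the 10 genes in CPM (linear axes from 0, 1 panel per gene), with the 3 libraries labelled knockout left of the 3 WT libraries as points and the mean with its SD as a bar. The libraries labelled knockout lie wholly above WT for UHRF2, TET1, TET2 and TET3 and wholly below for DNMT3B, and replicate 1 labelled knockout is farthest from WT for TET1 at 298 CPM.

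The maintenance genes did not pass the test. DNMT1 (ENSG00000130816), the methyltransferase that copies methylation after replication, had 378, 447 and 420.5 CPM in the libraries labelled knockout, against 438, 417 and 439.6 CPM in WT. The groups overlapped. Its log2 fold change was -0.06 ± 0.13 (95% interval -0.35 to 0.24; edgeR adjusted p = 0.782) and 0.015 (-0.10 to 0.13) without replicate 1 labelled knockout, so the sign turned and the interval narrowed. With 5105 to 7358 counts per library, its counting error is small beside the spread between libraries.

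UHRF1, the ubiquitin ligase that brings DNMT1 to hemimethylated DNA, had 77.7, 174 and 149.6 CPM in the libraries labelled knockout, against 165, 177 and 162 CPM in WT. Replicate 1 labelled knockout was the lowest of the 6, at 1.05 below the mean of replicates 2 and 3 on the log2 scale, and replicate 2 lay within the WT range. The log2 fold change was -0.33 ± 0.28 (95% interval -0.98 to 0.33; edgeR adjusted p = 0.439) and -0.05 (-0.20 to 0.10) without replicate 1. UHRF1 shares 13741 bases of its span with ARRDC5, and reads in shared bases cannot be assigned without strand. UHRF2, its paralogue, had 102, 78.9 and 82.7 CPM in the libraries labelled knockout, against 74.5, 67.2 and 69.6 CPM in WT. All libraries labelled knockout were above WT, but the difference was not called, at a log2 fold change of 0.32 ± 0.15 (95% interval -0.03 to 0.67; edgeR adjusted p = 0.184). Without replicate 1 it was 0.21 (0.05 to 0.37) and was called, with an edgeR adjusted p of 0.0334 where the alternatives ranged from 0.0334 to 0.441.

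HELLS, the remodeller that opens heterochromatin to the methyltransferases, had 216, 145 and 165 CPM in the libraries labelled knockout, against 169, 158 and 157 CPM in WT. Replicate 1 labelled knockout was the highest library and replicate 2 the lowest, so the groups overlapped. The log2 fold change was 0.12 ± 0.17 (95% interval -0.29 to 0.53; edgeR adjusted p = 0.654) and turned to -0.049 (-0.20 to 0.10) without replicate 1.

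The de novo methyltransferases gave different values. DNMT3A, which also methylates outside CG in some tissues, had 58.8, 53.2 and 44.5 CPM in the libraries labelled knockout, against 48.9, 53.1 and 49.1 CPM in WT. The WT range lay inside that of the other group. Its log2 fold change was 0.05 ± 0.15 (95% interval -0.30 to 0.41; edgeR adjusted p = 0.837) and -0.036 (-0.22 to 0.15) without replicate 1 labelled knockout.

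DNMT3B, the enzyme mutated in the immunodeficiency syndrome ICF1, had 67.5, 95.4 and 89.5 CPM in the libraries labelled knockout, against 122.9, 123.2 and 126 CPM in WT. In raw counts these were 913, 1572 and 1488 in the libraries labelled knockout, against 1890, 2075 and 2056 in WT. Every library labelled knockout was below every WT library, with replicate 1 the lowest. The mean was 84.1 ± 14.7 CPM in the libraries labelled knockout and 124 ± 1.68 CPM in WT (SD, n = 3 each), a ratio of 0.678. The log2 fold change of -0.56 ± 0.16 (95% interval -0.94 to -0.18) missed the threshold with an edgeR adjusted p of 0.0590. Without replicate 1 it was -0.42 (-0.56 to -0.27) and was called, with an edgeR adjusted p of 3.29e-05. The alternatives ranged from 3.29e-05 to 0.199. DESeq2 on all 6 libraries also called it.

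The 3 TET genes lay above every WT library in every library labelled knockout, and 1 of them passed the test. TET3 (ENSG00000187605), whose longer form has a CXXC domain that binds unmethylated CG, had 74.1, 52.7 and 50.1 CPM in the libraries labelled knockout, against 32.3, 37.9 and 37.4 CPM in WT. In raw counts it had 1002, 868 and 834 in the libraries labelled knockout, against 496, 638 and 610 in WT. Every library labelled knockout was above every WT library, and replicate 1 was the highest. TET3 averaged 59.0 ± 13.2 CPM in the libraries labelled knockout and 35.8 ± 3.12 CPM in WT (SD, n = 3 each). Its log2 fold change was 0.72 ± 0.19 (95% interval 0.27 to 1.16; edgeR adjusted p = 0.0447). Without replicate 1 labelled knockout it was 0.53 (0.34 to 0.72; edgeR adjusted p = 4.81e-05). The call ended without replicate 3 labelled knockout (edgeR adjusted p = 0.0687), where 6.48% of all genes were called. It also ended without WT replicate 1 (edgeR adjusted p = 0.191), 2 (0.145) or 3 (0.155), where 3.63%, 3.69% and 3.54% of genes were called. The log2 fold change stayed between 0.53 and 0.82 over 14 alternatives.

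TET2, the family member without a CXXC domain of its own, had 90.7, 41.5 and 40.9 CPM in the libraries labelled knockout, against 30.9, 29.9 and 29.7 CPM in WT. The WT libraries lay close together and all libraries labelled knockout were above them, replicate 1 by far the most. The mean was 57.7 ± 28.6 CPM in the libraries labelled knockout and 30.2 ± 0.623 CPM in WT, and the log2 fold change was 0.93 ± 0.32 (95% interval 0.19 to 1.68; edgeR adjusted p = 0.0899). Without replicate 1 it was 0.46 (0.27 to 0.65) and was called, with an edgeR adjusted p of 0.00024, the lowest of alternatives that reached 0.243. TET2 shares 108450 bases of its span with the antisense gene TET2-AS1, and the labels do not state that counting used strand.

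TET1, which carries a CXXC domain and is known from embryonic stem cells, had 298, 97.4 and 108 CPM in the libraries labelled knockout, against 87.1, 89.4 and 84.7 CPM in WT. Replicate 1 labelled knockout stood 1.54 above the mean of replicates 2 and 3 on the log2 scale, beyond the 95th percentile of 1.19 over all tested genes. The mean of 168 ± 113 CPM in the libraries labelled knockout, against 87.1 ± 2.39 CPM in WT, rests on that library. The log2 fold change was 0.95 ± 0.42 (95% interval -0.03 to 1.92; edgeR adjusted p = 0.161), against 0.24 (0.09 to 0.40) without it, which was called with an edgeR adjusted p of 0.00967, where the alternatives ranged up to 0.342.

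TDG, the glycosylase that removes the oxidised bases made by TET enzymes, had 115, 79.8 and 89.7 CPM in the libraries labelled knockout, against 85.2, 85.9 and 90.4 CPM in WT. Replicate 1 labelled knockout was above WT, replicate 2 below it and replicate 3 within it. Its log2 fold change was 0.12 ± 0.17 (95% interval -0.27 to 0.51; edgeR adjusted p = 0.637) and -0.033 (-0.19 to 0.13) without replicate 1.

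**Figure D2:**
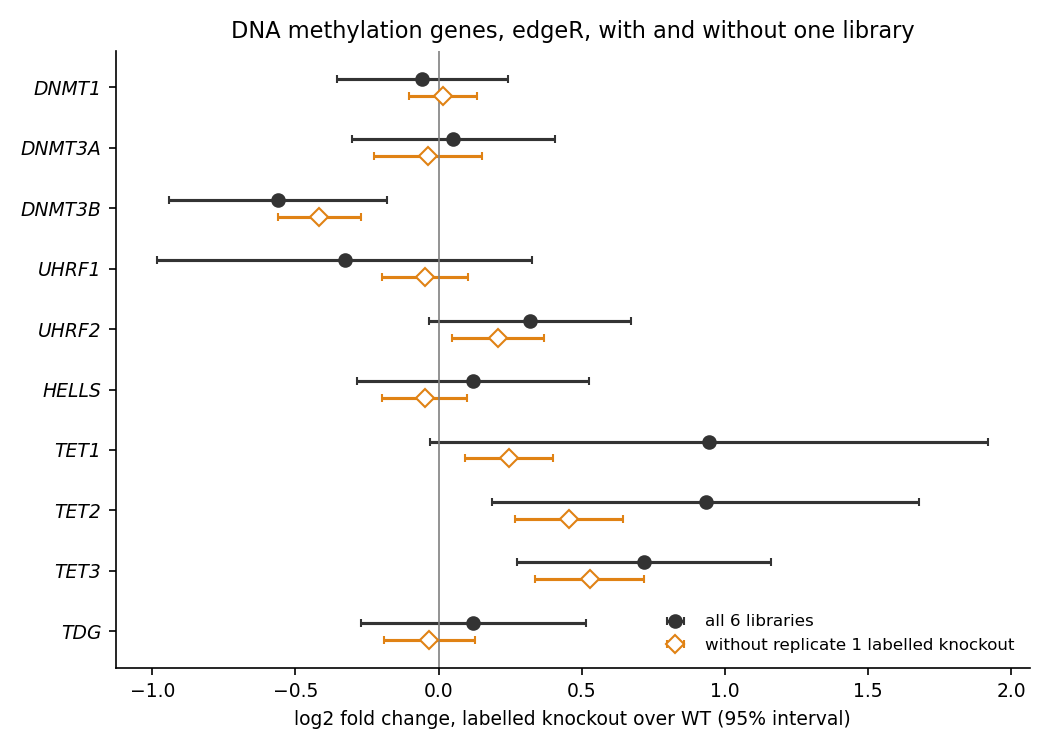
Log2 fold change of each of the 10 genes, labelled knockout over WT, with its 95% interval, from all 6 libraries and from 5 libraries without replicate 1 labelled knockout. TET3 is the 1 gene called with all libraries, at 0.72, and without replicate 1 UHRF2, TET1, TET2 and TET3 are called higher and DNMT3B lower.

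Without replicate 1 labelled knockout, 5 of the 10 genes were called, 4 of them higher and 1 lower. The background also grew, to 44% of 18133 genes called, 22.3% higher and 21.7% lower. The deviation of replicate 1 from the mean of replicates 2 and 3 ran from -1.05 for UHRF1 to 1.54 for TET1 on the log2 scale. Over all tested genes its 5th and 95th percentiles were -1.90 and 1.19. UHRF1, DNMT3B and DNMT1 were lower in that library, and the other 7 genes were higher. With mitochondrial genes left out of scaling, the log2 fold change with all libraries was 0.95 for TET1, 0.72 for TET3 and -0.56 for DNMT3B. The part of the mitochondrial share and scaling factor of replicate 1 in its deviations was not tested.

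Ratios within a library do not depend on scaling, and 4 were compared by a two-sided exact permutation test, which with 3 against 3 libraries cannot give a p below 0.1. Counts of the 3 TET genes over those of the 3 DNMT genes gave 0.919, 0.322 and 0.359 in the libraries labelled knockout, against 0.246, 0.265 and 0.247 in WT. The groups did not overlap. The difference was 0.91 on the log2 scale and 0.43 without replicate 1 labelled knockout (exact permutation p = 0.1, adjusted over the 4 ratios 0.2). A ratio of summed counts is weighted to the genes with most reads, here TET1 and DNMT1. The DNMT3A to DNMT3B ratio was 0.871, 0.558 and 0.498 in the libraries labelled knockout, against 0.398, 0.431 and 0.390 in WT. These also stayed apart, with a difference of 0.62 and 0.38 without replicate 1 (exact permutation p = 0.1, adjusted 0.2). The UHRF1 to DNMT1 ratio was 0.206, 0.390 and 0.356 in the libraries labelled knockout, against 0.377, 0.425 and 0.368 in WT. Its groups overlapped, and the difference of -0.35 shrank to -0.06 without replicate 1 (exact permutation p = 0.3, adjusted 0.4). The TET3 to TET1 ratio was 0.249, 0.541 and 0.465 in the libraries labelled knockout, against 0.370, 0.424 and 0.441 in WT. The WT range lay inside the other group's range (exact permutation p = 1), and the log2 difference of -0.05 became 0.29 without replicate 1 labelled knockout and 0.0032 without WT replicate 3.

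Genes that work beside the 10 were read from lists. As background for the counts below, edgeR called 15.1% of all tested genes (8.64% higher, 6.5% lower) and DESeq2 24.1%. Without replicate 1 labelled knockout edgeR called 44% (22.3% higher, 21.7% lower). No list was tested against these shares. Of the maintenance partners, 10 of 11 were tested, with 1 higher and 0 lower (median log2 fold change -0.04) and with 3 higher and 1 lower without replicate 1 labelled knockout. The 1 was CDCA7L, a relative of the HELLS partner CDCA7, at 56.5 ± 9.57 CPM in the libraries labelled knockout and 36.2 ± 3.10 CPM in WT (log2 fold change 0.64 ± 0.17; edgeR adjusted p = 0.0438). Among other family members and regulators, 10 of 12 were tested, with 2 higher and 0 lower (median 0.51), against 6 higher and 3 lower without replicate 1 labelled knockout and 5 higher and 0 lower by DESeq2. SETD2 writes the H3K36 mark that DNMT3B reads in gene bodies. It averaged 189 ± 78.8 CPM in the libraries labelled knockout and 83.2 ± 3.80 CPM in WT (log2 fold change 1.18 ± 0.28, or 0.79 without replicate 1; edgeR adjusted p = 0.0314). KDM1B, a histone demethylase needed for oocyte methylation in mice, averaged 127 ± 14.2 CPM in the libraries labelled knockout and 75.2 ± 3.00 CPM in WT (0.76 ± 0.14; edgeR adjusted p = 0.0142). DNMT3L, the partner of the de novo enzymes in germ cells, was at or near 0 in every library.

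Among the methyl-CpG readers, 7 of 8 were tested and 0 were called by edgeR (median 0.29). With an edgeR p under 0.05 unadjusted, 3 would be higher and 0 lower, where the share of all genes was not counted. DESeq2 called 1 higher, limma-voom 0, and edgeR 3 higher without replicate 1 labelled knockout. Of the base excision partners, 13 of 15 were tested, with 1 higher and 0 lower (median -0.28), against 2 higher and 3 lower of 14 without replicate 1 labelled knockout. That 1 was NEIL3, a glycosylase of oxidised bases, at 45.5 ± 11.8 CPM in the libraries labelled knockout and 21.4 ± 1.71 CPM in WT (log2 fold change 1.09 ± 0.21; edgeR adjusted p = 0.0162). GADD45G, linked to demethylation in several reports and named here after its values were seen, had 8, 39 and 31 counts in the libraries labelled knockout, against 1, 2 and 0 in WT, and was below the filter with all libraries. Without replicate 1 labelled knockout it passed the filter through the libraries where it is high. It was called there, at 4.94 (95% interval 3.52 to 6.37) on the log2 scale, which is no separate support. Without any 1 of the WT libraries, 14 genes of this list were tested and 0 were called. Of the genes that supply methyl groups or 2-oxoglutarate, 11 of 13 were tested, with 2 higher and 1 lower (median 0.22), against 4 higher and 3 lower of 12 without replicate 1 labelled knockout. MTR, methionine synthase, was higher at 0.68 ± 0.15 on the log2 scale (edgeR adjusted p = 0.0278), and AHCY, which removes S-adenosylhomocysteine, 0.44 ± 0.12 (edgeR adjusted p = 0.0462).

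Of the heterochromatin genes, 13 of 14 were tested, with 1 higher and 1 lower (median 0.32), against 5 higher and 2 lower without replicate 1 labelled knockout and 3 higher and 1 lower by DESeq2. Among the genes tested in these 7 lists with all libraries, MPHOSPH8 had the largest log2 fold change in size. MPHOSPH8, a subunit of the silencing complex HUSH that binds methylated H3K9, had 114, 215 and 199 counts in the libraries labelled knockout, against 839, 964 and 961 counts in WT. That is 11.1 ± 2.42 CPM in the libraries labelled knockout and 56.9 ± 2.18 CPM in WT (SD, n = 3 each). The groups lay far apart, with replicate 1 the lowest of its group. The log2 fold change was -2.35 ± 0.19 (edgeR adjusted p = 0.000756) and stayed between -2.47 and -2.18, called in all 14 alternatives. MORC2, an ATPase that works with HUSH, was higher at 166 ± 34.0 CPM in the libraries labelled knockout and 74.2 ± 5.55 CPM in WT (1.16 ± 0.18; edgeR adjusted p = 0.00739). The other HUSH subunits TASOR (1.09 ± 0.31; edgeR adjusted p = 0.0537) and PPHLN1 (0.22 ± 0.15; edgeR adjusted p = 0.319), named here because MPHOSPH8 was seen to differ, were not called with all libraries. Without replicate 1 labelled knockout TASOR was called, at 0.64 (0.50 to 0.77; edgeR adjusted p = 1.5e-08), and PPHLN1 was not, at 0.15 (edgeR adjusted p = 0.156). The spans of MPHOSPH8 and MORC2 overlap at their ends with those of PSPC1 and MORC2-AS1, where reads cannot be assigned without strand.

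Replication genes bear on DNMT1 and UHRF1, which are used most in S phase, and 22 of 23 were tested, with 2 higher and 1 lower (median -0.11), against 7 higher and 4 lower without replicate 1 labelled knockout. CCNA2, a cyclin of S and G2 phase, stood at 0.99 ± 0.20 on the log2 scale (edgeR adjusted p = 0.0195). RRM2, a ribonucleotide reductase subunit, was at 0.73 ± 0.14 (edgeR adjusted p = 0.0164), and MCM4, a helicase subunit, -0.48 ± 0.13 (edgeR adjusted p = 0.0471). Most of these calls in the 7 lists ended when a library other than replicate 1 labelled knockout was left out. Of the 12 genes called in them, all 12 were called without replicate 1 labelled knockout, 8 without replicate 2 and 5 without replicate 3. MPHOSPH8 alone was called without WT replicate 1 or 3, and MPHOSPH8 and MORC2 without WT replicate 2.

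**Figure D3:**
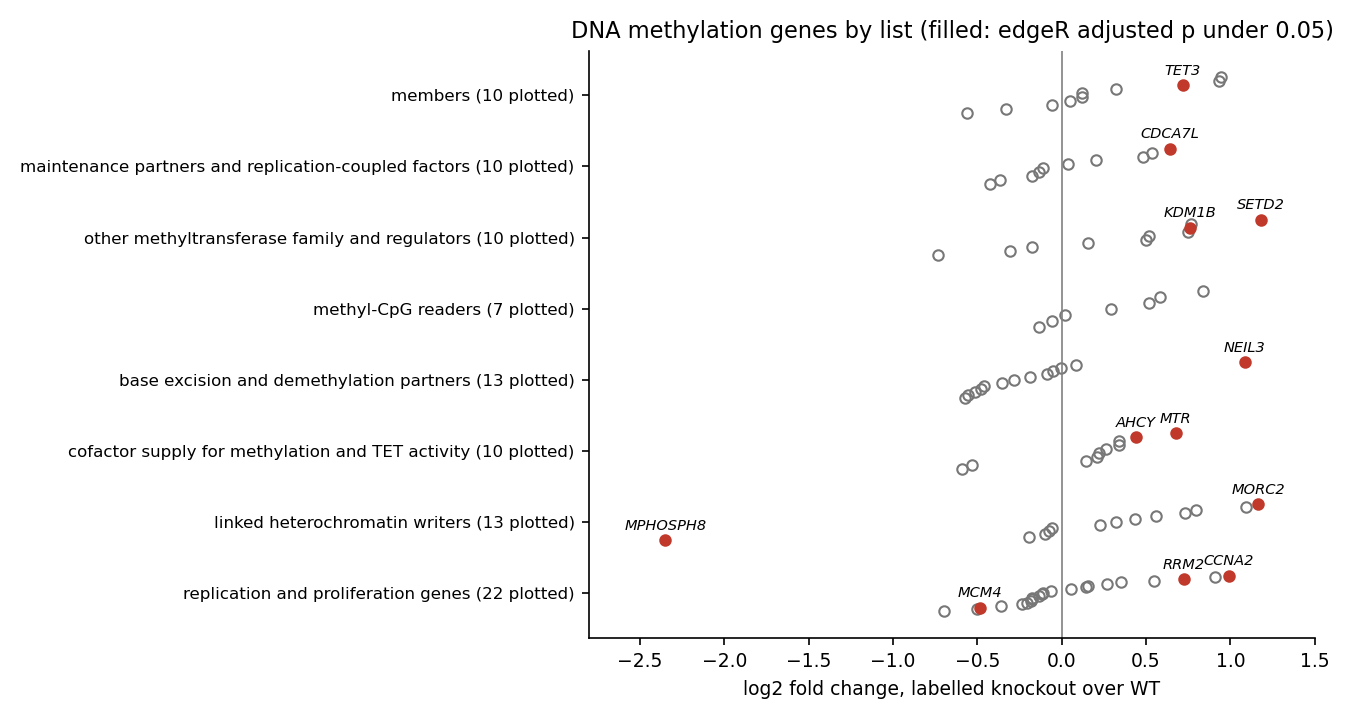
Log2 fold change, labelled knockout over WT, of the plotted genes in the list of 10 and in 7 lists of related genes, with genes called by edgeR filled and named. Most genes lie between -1 and 1, and MPHOSPH8 at -2.35 lies farthest from 0.

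The 10 genes were then set against genes that were on in a group and off in the other. A gene counted as switched when all libraries of a group had 0 counts and all of the other group had 1 CPM or more. By that rule 31 genes were switched on in the libraries labelled knockout and 23 were switched off, 0.201% and 0.149% of the 15397 genes at 1 CPM or more in each library of a group. None of the 10 genes was among them, and each had at least 475 counts in every library. Over the other thresholds tried and with each library left out in turn, 23 to 49 genes were switched on and 17 to 33 were switched off, and none of the 10 was among them. Without replicate 1 labelled knockout there were 35 on and 26 off.

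The 5 protein-coding genes highest where on were EPDR1, BEX1, INA, SLC7A3 and LRFN5. EPDR1, an ependymin-related lysosomal protein, had 32.5, 35.8 and 40.4 CPM in the libraries labelled knockout and 0 counts in WT, at least 590.2-fold higher against a floor of 3 counts over the group. BEX1, a small X-linked protein of neurons, had 13.2, 42.7 and 31.9 CPM in the libraries labelled knockout and 0 counts in WT, at least 490.3-fold higher. INA was at least 438-fold, SLC7A3, a cationic amino acid transporter, at least 254-fold and LRFN5, a synaptic adhesion protein, at least 208-fold higher. The 5 highest in WT and off in the libraries labelled knockout were SFRP1, GSPT2, ZC3HAV1L, CSAG3 and SAGE1. SFRP1, a secreted WNT antagonist, had 0 counts in the libraries labelled knockout and 26.2, 27.9 and 26.5 CPM in WT, at least 418-fold lower. GSPT2, an intronless copy of the release factor eRF3, had 0 counts in the libraries labelled knockout and 23.5, 24.0 and 26.1 CPM in WT, at least 381-fold lower. ZC3HAV1L was at least 304-fold lower, and the cancer-testis genes CSAG3 and SAGE1 at least 243-fold and 212-fold lower. CSAG3 has near-identical copies, so its reads may be shared with them.

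**Figure D4:**
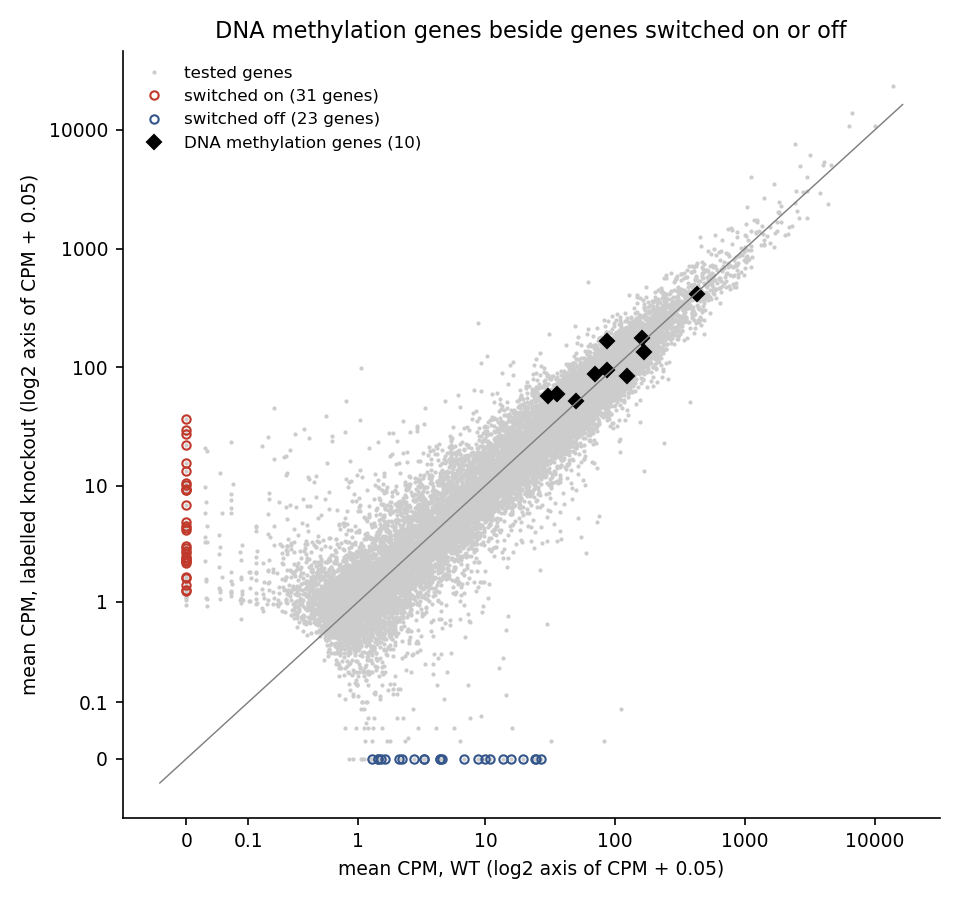
Mean CPM of each tested gene in the libraries labelled knockout (vertical) and in WT (horizontal), on log axes with 0.05 added, with the 31 genes switched on, the 23 switched off and the 10 DNA methylation genes marked and a line of equal level. The switched genes sit at 0 on an axis, while the 10 genes lie near the line, from 52.2 to 415 CPM in the libraries labelled knockout and from 30.2 to 431 CPM in WT.

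Of the protein-coding genes switched off, 7 of 15 (46.7%) were on the X chromosome, and of those switched on, 2 of 20 (10%). Among the 12429 protein-coding genes at 1 CPM or more in each library of a group, 463 (3.73%) were X-linked. These shares rest on few genes, some of which are neighbours (CSAG3 and SAGE1 each lie near another of them), and no test was run on them.

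Promoters of 2 genes switched on and 2 switched off are shown, since promoter CG sites are where silencing methylation is known to lie. EPDR1 (chr7:37920390-37920639, plus strand) holds 5 CG here and 25 before its other listed start. BEX1 (chrX:103064172-103064421, minus strand) holds 19, GSPT2 (chrX:51743192-51743441, plus strand) 12, and ZC3HAV1L (chr7:139036043-139036292, minus strand) 27. Capitals again mark CG.
EPDR1: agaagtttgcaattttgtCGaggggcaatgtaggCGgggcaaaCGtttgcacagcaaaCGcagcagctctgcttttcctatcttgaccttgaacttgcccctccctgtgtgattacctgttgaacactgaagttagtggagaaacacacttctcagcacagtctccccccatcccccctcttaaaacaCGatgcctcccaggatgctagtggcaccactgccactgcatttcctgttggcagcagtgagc
BEX1: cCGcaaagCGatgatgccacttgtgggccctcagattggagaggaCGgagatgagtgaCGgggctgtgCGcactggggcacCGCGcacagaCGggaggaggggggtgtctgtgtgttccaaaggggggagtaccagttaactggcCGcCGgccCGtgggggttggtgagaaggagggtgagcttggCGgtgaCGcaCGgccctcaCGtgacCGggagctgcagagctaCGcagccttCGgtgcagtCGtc
GSPT2: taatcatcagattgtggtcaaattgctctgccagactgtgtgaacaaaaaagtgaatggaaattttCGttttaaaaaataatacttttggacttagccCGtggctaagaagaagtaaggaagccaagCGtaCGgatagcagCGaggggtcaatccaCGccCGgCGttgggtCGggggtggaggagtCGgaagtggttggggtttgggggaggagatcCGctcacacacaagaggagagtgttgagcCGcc
ZC3HAV1L: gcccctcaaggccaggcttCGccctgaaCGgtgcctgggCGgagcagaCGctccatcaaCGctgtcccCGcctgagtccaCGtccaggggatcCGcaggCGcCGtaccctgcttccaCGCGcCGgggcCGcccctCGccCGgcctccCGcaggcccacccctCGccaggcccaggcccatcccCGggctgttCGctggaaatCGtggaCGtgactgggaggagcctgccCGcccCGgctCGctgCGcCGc

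Counts of CG in the same 250-base windows were compared as a description. Of 35116 listed windows, 93.9% held at least 1 CG and 52.2% held 10 or more, with a median of 11. The 10 genes had a median of 21, and 8 of 10 held 10 or more. The 2 below were TET1 with 9 and DNMT3B with 3. The first listed start lies inside the gene span by 17467 bases for DNMT3B, 6421 for UHRF1, 1279 for TET3 and 107 for DNMT3A, so those windows are not at the end of the span. Of switched-on genes, 15 of 20 had a window, with a median of 19, and 10 of 15 (66.7%) held 10 or more. Of switched-off genes, 9 of 15 had a window, with a median of 16, and 9 of 9 held 10 or more. Among expressed protein-coding genes, 10164 of 12429 had a window, with a median of 21, and 86.2% held 10 or more. These counts depend on which listed start is taken. With the start richest in CG, medians were 22.5 for the 10 genes, 25 for switched-on, 16 for switched-off and 23 for expressed genes. In that order 90%, 80%, 100% and 91.5% then held 10 or more. Methylation itself was not measured in these files.

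**Figure D5:**
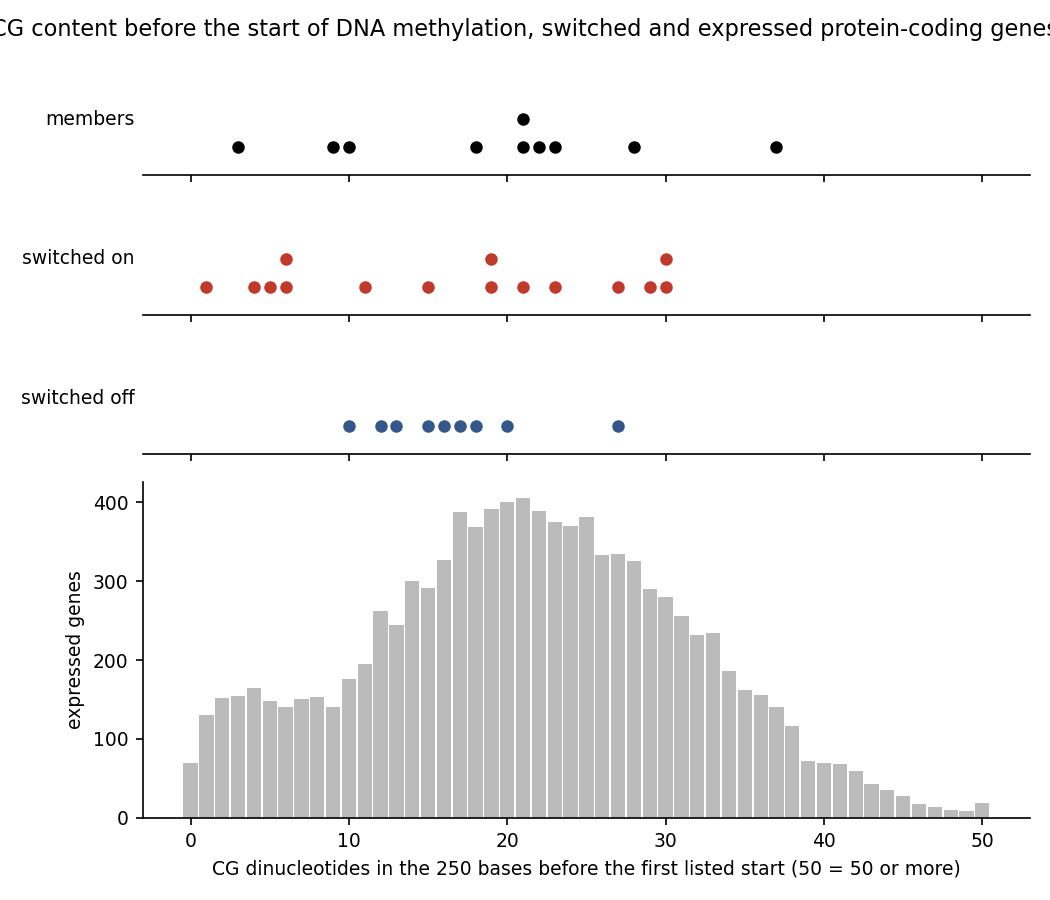
Number of CG in the 250 bases before the first listed start, as 1 point per gene for the 10 DNA methylation genes and the protein-coding genes switched on and switched off, and as a histogram for the expressed protein-coding genes. The 10 genes run from 3 (DNMT3B) to 37 (TET3), and the medians are 21, 19, 16 and 21 from top to bottom.

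Genes with the most similar pattern were found by the root mean square difference of log2 CPM, each centred on its own mean, over the 6 libraries and 15786 genes. For DNMT1 these were CAMLG, TMED3 and PRPF19, at 0.0253, 0.0275 and 0.0291. For DNMT3B they were AHDC1, UNC45A and COL13A1, at 0.0274, 0.0290 and 0.0329. For TET1 they were TMTC3 at 0.0124, MT-ND1 at 0.0474 and PHF3 at 0.0496. MT-ND1, a subunit of respiratory complex I made in mitochondria, had 4603 CPM in replicate 1 labelled knockout and 1387 to 1722 CPM in the other libraries. TMTC3, on chromosome 12, had 278 CPM in that replicate and 77.6 to 100 CPM in the other libraries. PHF3, on chromosome 6, had 347 CPM and 104 to 138 CPM. Each thus shared with TET1 the high value of that library.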

How the data were processed

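The deposited files hold raw counts per gene and library, not normalised. The submitters' processing notes list HTSeq 0.12.4, HISAT2 2.2.1 and the GRCh38 build, besides DESeq2, bedtools 2.30.0, SAMtools 1.3.1 and FastQC 0.11.9, without counting options. Poly-T beads and a NEBNext Ultra kit were used, per the labels' protocols. Reads in no feature (15.9%, 10.4% and 10.8% in the libraries labelled knockout, 8.75% to 9.87% in WT) and ambiguous reads (9.74% to 11.9% and 11.6% to 12.5%) were left out. Deposited mitochondrial coverage was not used here. The test was edgeR 4.0.16 under R 4.3.3 (TMM, filterByExpr, group as the only term, Benjamini-Hochberg at 0.05). The standard error is the log2 fold change over the root of F. Symbols and coordinates came from RefSeq; 40666 identifiers had a record. No library duplicated another. Same-numbered libraries did not deviate together, but that check cannot exclude a pairing by number. Alternatives were DESeq2 1.42.0, limma 3.58.1 voom, other scalings and filters, leaving out each library, and a replicate block. The edgeR script was tested on simulated data in which changes were 2-fold or larger and no library stood apart. That check thus does not bear on smaller changes or on replicate 1 labelled knockout.

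The 10 genes and all lists were chosen with earlier results of these data known. Named are the 10, C17orf80, up to 2 called genes per list and direction by size (up to 4 for germline and imprinted lists), the 5 highest protein-coding genes switched each way, and the 3 nearest patterns of DNMT1, DNMT3B and TET1. The values of 1 list gene are not reported here.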

Additional observations from a re-analysis of the deposited data

How the results depend on the processing

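Over all genes, 2641 were called by edgeR, against 4206 by DESeq2, 969 with a replicate block and 644 to 7975 with a library left out, the highest without replicate 1 labelled knockout. Of the 10 genes, 1 was called by edgeR, against 3 by DESeq2 (TET2 and TET3 higher, DNMT3B lower), 3 with no filter on low counts (TET1, TET2 and TET3 higher), 0 with the replicate block and 0 to 5 with a library left out. With the block, TET3 had a log2 fold change of 0.70 and an edgeR adjusted p of 0.121. Same-numbered libraries had correlations of -0.06, -0.03 and 0.0022 of their deviations from the group means. Replicate 1 labelled knockout stands apart and enters every deviation of its group, so this check cannot exclude a pairing by number. Without replicate 1 labelled knockout the sign of the log2 fold change turned for 4 of the 10 genes, for CAMLG and PRPF19 among the named genes, and for the TET3 to TET1 ratio. With a library left out, values ran from -0.11 to 0.015 for DNMT1, -0.036 to 0.15 for DNMT3A, -0.049 to 0.24 for HELLS, -0.033 to 0.24 for TDG, -0.063 to 0.063 for CAMLG, -0.12 to 0.036 for PRPF19 and -0.27 to 0.29 for that ratio, which also turned without WT replicate 3 (0.0032). With at least 0.5 CPM required in the on group, 49 genes were switched on, against 31. Other scalings moved the median of all genes by at most 0.01 on the log2 scale. The other 6 of the 10 genes kept their direction in all 14 alternatives. The lowest count of the 10 genes in a library was 475, and no fit at reduced depth was run. Where a call was lost, the cause was not tested.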

Other observations

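Genes often silenced by promoter methylation were counted apart. Of 61 germline and cancer-testis genes, 16 were tested, with 2 higher and 7 lower (median log2 fold change -0.68), and with 4 higher and 9 lower of 17 without replicate 1 labelled knockout. Over all tested genes 8.64% were called higher and 6.5% lower, and 22.3% and 21.7% without that library. MAGEA3, a cancer-testis antigen, had 0, 0.0607 and 0 CPM in the libraries labelled knockout, against 83.4, 79.5 and 85.2 CPM in WT. MAGEA6 had 0, 0.121 and 0.120 CPM in the libraries labelled knockout, against 115, 108 and 111 CPM in WT. These copies are near-identical and may share reads. MAGEA3, MAGEA6 and CSAG3 are neighbours on the X chromosome, so the 7 lower calls are not all separate loci. The other 45 of the 61 genes were below the filter. MAGEA3, MAGEA6, CSAG3 and SAGE1 passed it through the WT libraries, where they are high, so their calls are no separate support. The count of lower genes is thus not read against the shares over all genes. TEX14, a protein of germ cell bridges, was higher, at 1.41 ± 0.32 on the log2 scale (edgeR adjusted p = 0.0289), and so was TDRD6, a tudor domain protein of male germ cells, at 1.32 ± 0.34 (edgeR adjusted p = 0.0402). The direction thus differed within the list.

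Of 28 imprinted genes, 12 were tested, with 1 higher and 1 lower (median 0.17), beside 8.64% and 6.5% of all tested genes. Without replicate 1 labelled knockout, 1 was higher and 2 were lower of 13 (median 0.024), beside 22.3% and 21.7%. IGF2, a growth factor, had 3.99, 4.92 and 4.51 CPM in the libraries labelled knockout, against 1.95, 0.772 and 1.90 CPM in WT (log2 fold change 1.54 ± 0.38; edgeR adjusted p = 0.0353). PLAGL1, a zinc finger factor, had 66.3, 72.0 and 78.3 CPM in the libraries labelled knockout, against 104, 108 and 113 CPM in WT (-0.58 ± 0.13; edgeR adjusted p = 0.0286). Among the markers of HEK-293 identity, WT1, a kidney transcription factor, was higher (1.67 ± 0.20; edgeR adjusted p = 0.00298), and NEFL, a neurofilament gene (-1.48 ± 0.17; edgeR adjusted p = 0.00252), and EYA1, a kidney and ear factor (-1.41 ± 0.21; edgeR adjusted p = 0.0061), were lower. The calls of TEX14, TDRD6, IGF2, PLAGL1 and COL1A1 ended without replicate 3 labelled knockout and without any 1 of the WT libraries, and those of IGF2 and PLAGL1 also without replicate 2 labelled knockout.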
